A study of Mus musculus with 10 samples.

Results

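The enzymes of glycolysis, the pyruvate dehydrogenase complex, the citric acid cycle and the malate-aspartate shuttle were examined in the mouse hippocampus. The list holds 37 genes. Its members are the probe sets for which the platform annotation gives 1 gene symbol and that symbol is on the list. This rule found 81 of the 45037 probe sets besides the array controls, and they stand for 34 of the 18193 genes so named. Gpi1, Gapdh and Eno1 had no such probe set. The Gapdh probe sets of the annotation were shared with pseudogenes, and Gapdh was read from the array's own control probe sets.

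Whole hippocampus was taken from 5 High Exploration and 5 Low Exploration mice, all inbred Balb c/J females born on 1 day, with no treatment and with 1 array per mouse. The mice had been ranked by a composite of several open-field measures over repeated sessions as adults, and the groups are the ends of that ranking, so behaviour defined the groups and every mouse had been through the test. The design text of the series describes a different experiment, on handled pups and microdissected CA1, and tissue and groups here follow the sample labels. Litter and cage are not in the labels, and p-values measure the spread between these mice.

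Glycolysis splits glucose into pyruvate in the cytosol, and lactate dehydrogenase interconverts pyruvate and lactate. The pyruvate dehydrogenase complex carries pyruvate into the mitochondrion's citric acid cycle as acetyl-CoA, and the cycle passes electrons to the respiratory chain. The malate-aspartate shuttle moves reducing equivalents from cytosolic NADH into mitochondria, and the brain, which runs largely on glucose, depends on all of these steps.

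The values are MAS5 signals on the log2 scale, and a difference is the High Exploration mean minus the Low Exploration mean. A probe set was tested with limma if its mean log2 signal lay above the median of all probe sets (7.43), which left 22518 probe sets. Of the members 64 of 81, from 32 genes, passed this filter. The other 17 were dim, and Ogdh and Got1 had no other probe set. Because a dim probe set passes more easily when 1 group reads high, counts over the 64 describe the bright members only. Of the 17 dim ones, 3 were higher and 14 lower in High Exploration mice.

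The arrays differed in more than the members. The median difference over all 22518 tested probe sets was −0.31, and 38.1% of them were higher in High Exploration mice. The bacterial and phage transcripts added at hybridisation read 13.6 ± 0.308 in High and 14.2 ± 0.293 in Low Exploration mice (log2 signal, SD, n = 5 each), and the poly-A transcripts added to the RNA read 12.5 ± 0.469 and 14.1 ± 0.439 in High and Low Exploration mice. The summed signal of 9 neuronal markers ranged from 30070 to 45900 in High and from 22620 to 29770 in Low Exploration mice, with 8 of the 9 above the filter and 6 of 9 higher in High Exploration mice. The sum of 6 astrocyte markers was 44560 to 72200 in High and 24980 to 41420 in Low Exploration mice, with 4 of 6 higher in High Exploration mice. Both sums kept the groups apart, but the tested probe sets of these genes leaned otherwise. Of 18 neuronal ones 6 were higher and 12 lower, with a median difference of −0.68, and of 16 astrocyte ones 8 were higher and 8 lower, with a median of 0.16. The sums of the other lists overlapped between the groups. For oligodendrocytes the sum ran from 49980 to 95580 in High and from 42620 to 104900 in Low Exploration mice, with 4 of 5 markers higher. For microglia it ran from 9701 to 32420 in High and from 24410 to 45760 in Low Exploration mice (3 of 6 higher), and for endothelium from 876.7 to 2197 and from 1812 to 3714 in High and Low Exploration mice (0 of 5 higher). The choroid plexus sum was 20060 to 34090 in High and 15800 to 26040 in Low Exploration mice (1 of 4 higher). The red blood cell sum was 119.7 to 391.9 in High and 214.3 to 677.5 in Low Exploration mice (0 of 3 higher, all under the filter). No marker was at 0. The part of the marker and poly-A shifts in the members' values was not tested, and a fit with the hybridisation controls as a covariate is given with the arrays. In whole tissue, fewer cells of a type and less RNA per cell cannot be told apart.

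Most of the bright members were higher in High Exploration mice, but no member passed the adjusted threshold. Of the 64 tested, 47 were higher and 17 lower, with a median difference of 0.39. At a limma adjusted p under 0.05, 0 of 64 members were called, against 0.0133% of all tested probe sets (3 of 22518), and the smallest adjusted p of a member was 0.0732. At an unadjusted limma p under 0.05, 17 members were higher, 26.6% against 9.67% of all, and 5 were lower, 7.81% against 20.5% of all. These shares of all take no account of signal level, and counts by signal level are given below. The groups failed to overlap, with High above Low, in 1 member (1.56%, against 2.14% of all). They failed to overlap with High below Low in 2 members (3.12%, against 6.69% of all). Counts of fully separated members were therefore near or under the background in both directions.

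**Figure D1:**
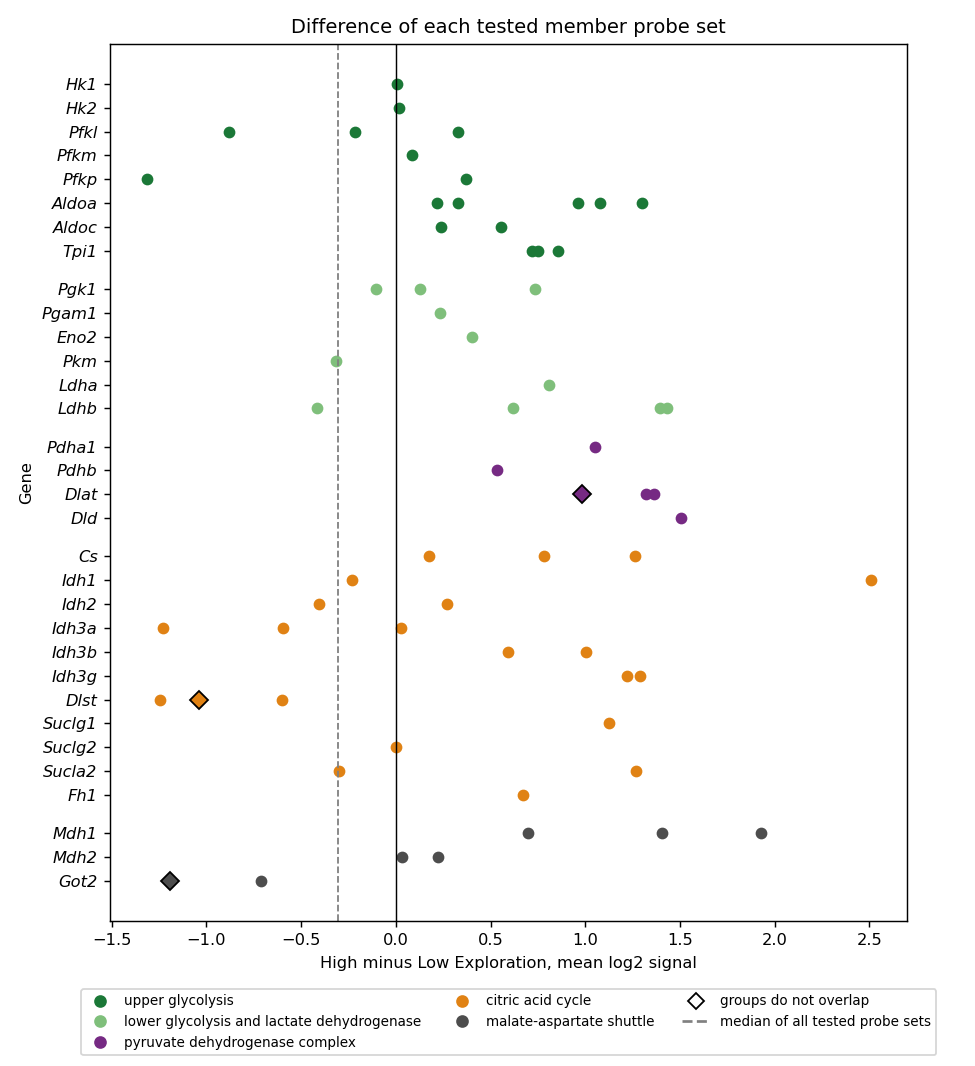
Each point is 1 tested member probe set, placed by gene (rows) and by High minus Low Exploration mean log2 signal (horizontal axis), coloured by role. Diamonds mark the 3 probe sets whose groups do not overlap (Dlat, Dlst and Got2), and the dashed line is the median of all tested probe sets, −0.31.

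By role the counts were uneven. The pyruvate dehydrogenase complex had all 6 tested probe sets higher, with a median difference of 1.19. Lower glycolysis with lactate dehydrogenase had 8 of 11 higher (median 0.40), and upper glycolysis 15 of 18 (median 0.33). The citric acid cycle was mixed, with 13 of 22 higher and a median of 0.22. The shuttle enzymes had 5 of 7 higher and a median of 0.22, which turned to −0.25 after quantile normalization and −0.24 after cyclic loess. The medians of the other 4 roles were above 0 under both of those methods, with that of lower glycolysis at 0.06 after quantile normalization and 0.13 after cyclic loess. Setting each array to its median adds a single constant to every difference, and it moved the median of all tested probe sets to 0.23 and that of the members to 0.92. The members' lead over all tested probe sets, which such a constant cannot alter, was 0.69 as deposited, and it was 0.39 after quantile normalization and 0.36 after cyclic loess. Without the filter on dim probe sets, 50 of 81 members were higher, the shuttle median was −0.15 and the citric acid cycle median −0.000559.

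Position on the signal scale went with the difference. The members are bright, and 34 of the 64 lay in decile 10 when all probe sets were ranked by mean signal and cut into 10 equal classes. In that decile 31 of 34 members were higher, with a median difference of 0.73, while 65.6% of all its probe sets were higher, with a median of 0.43. At an unadjusted limma p under 0.05, 13 of these members were higher and 0 lower, against 1207 higher and 331 lower of all 4504. In decile 9 the members' median was 0.37 (10 of 13 higher) and that of all probe sets −0.17. At that p 4 of the 13 were higher and 0 lower, against 467 higher and 902 lower of all 4504. In decile 8 the medians were 0.03 for the members (3 of 5 higher) and −0.47 for all probe sets. In decile 7 the members, at −0.60 (2 of 5 higher), lay just under all probe sets, at −0.55. In decile 6, the dimmest tested, the members' median was −0.30 (1 of 7 higher) and that of all probe sets −0.57. At an unadjusted limma p under 0.05, 2, 2 and 1 members of deciles 6, 7 and 8 were lower and 0 higher. Of all probe sets 1074, 1139 and 1176 were lower there, and 137, 143 and 223 higher. Of the 64 members, 46 lay above the median of their own decile.

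**Figure D2:**
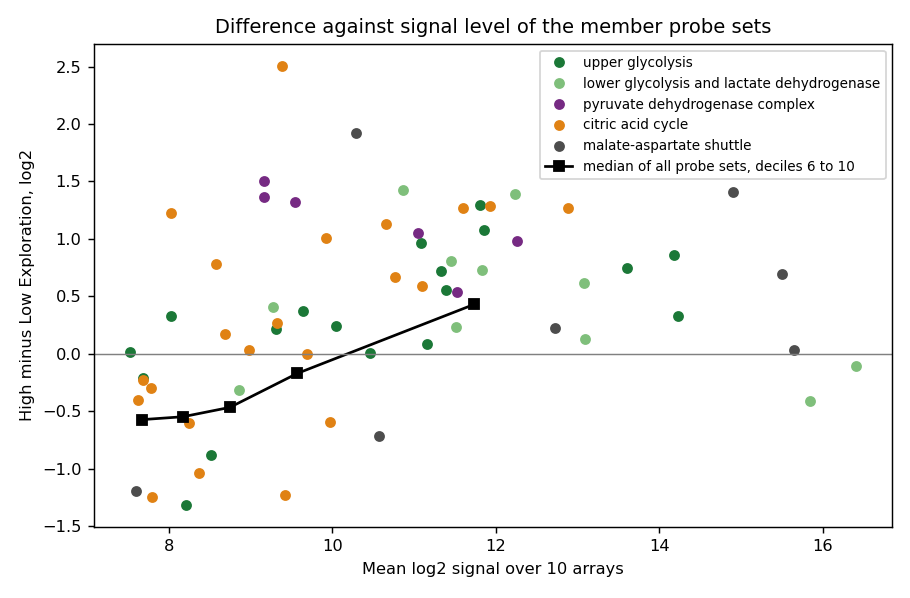
The difference of each tested member (High minus Low Exploration, log2) is plotted against its mean log2 signal over the 10 arrays, coloured by role, with black squares for the median of all probe sets in deciles 6 to 10. The squares climb with signal, between −0.57 and 0.43, and 46 of 64 members lie above the median of their decile.

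The difference was carried unequally by the arrays. The median log2 signal of the 64 members was 11.02, 11.54, 11.62, 10.38 and 10.30 in High Exploration replicates 1 to 5, against 10.76, 10.44, 10.29, 10.23 and 9.99 in Low Exploration replicates 1 to 5. High replicates 1 to 3 lay above every Low array, and High replicates 4 and 5 lay within the Low range. High replicate 3 was the highest of its group for 36 of the 64 members, and Low replicate 1 was the highest of its group for 34. Without High replicate 2 the members with an unadjusted limma p under 0.05 and a higher mean numbered 8, as they did without High replicate 3 and without Low replicate 4. Without Low replicate 3 they numbered 11 and without Low replicate 5 they numbered 9, against 17 with all arrays. They numbered 14 without High replicate 1 and 12 without Low replicate 2. The number rose to 18 without High replicate 5, 19 without High replicate 4 and 22 without Low replicate 1. The share of all tested probe sets at that p was not computed for these fits. With the level of the hybridisation controls as a covariate, an alternative added after the data were seen, 33 members were higher and 31 lower, and none had an adjusted p under 0.05. The members' lead over all tested probe sets was 0.14 in that fit. These controls themselves read lower in High Exploration mice (13.6 against 14.2), so the fit cannot fully separate the covariate from the group.

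**Figure D3:**
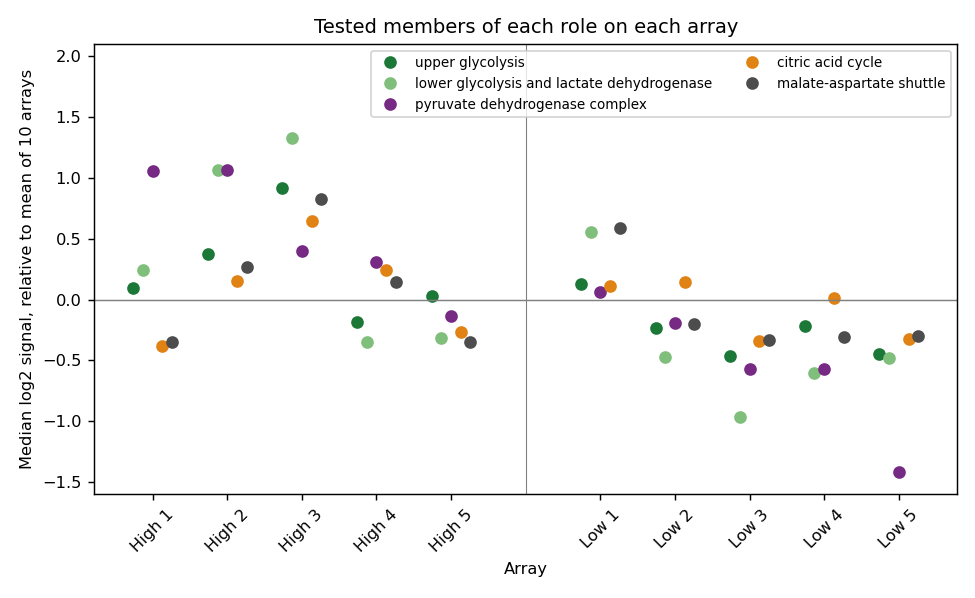
For each role, the median log2 signal of its tested members on each array is shown relative to its mean over the 10 arrays, with High Exploration on the left and Low Exploration on the right. High replicates 2 and 3 lie above 0 for every role, as does Low replicate 1, while Low replicates 3 and 5 lie below 0 for every role.

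The proximal promoters of the members were searched for motifs of metabolic regulators, which describes sequence and not binding. The 300 bases from 250 before to 50 after each start in the RefSeq promoters of GRCm38.p6 were read on both strands for 36 of the 37 genes, Idh3a being the one without an entry. These 36 genes had 53 starts, against 32851 for all 27025 genes, and a gene counted if any of its starts held the letters. GGGCGG, the GC box of Sp1-type factors, was found in 24 of the 36 genes (66.7%), against 38.2% of all 27025 genes. ACGTG, the core read by hypoxia-inducible factor, was found in 14 (38.9%), against 21.8% of all genes. By role these 14 were 5 of 9 genes of upper glycolysis, 5 of 8 of lower glycolysis, 1 of 4 of the pyruvate dehydrogenase complex, 2 of 11 of the cycle and 1 of 4 of the shuttle. CACGTG, the E-box, which contains ACGTG, was in 3 genes (8.33%, against 8.09% of all). AAGGTCA, a half-site of estrogen-related receptors, was in 4 genes (11.1%, against 5.38% of all), and CGCATGCG, the NRF1 core, was in 2 (5.56%, against 2.07% of all).

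The 150 bases before the start are printed for the 3 genes with a probe set whose groups did not overlap, and for Ldha, whose first start in the table holds 3 of the motifs. Matched letters are in capitals (GC box, E-box or ACGTG, on either strand), and the rest is in lower case, 5′ to 3′ on the strand of the gene. The Dlat and Got2 windows held no match, and that of Dlst held 1 GC box. Dlat lies at chr9:50659781-50659930 on the minus strand, Dlst at chr12:85110683-85110832 on the plus strand, Got2 at chr8:95888402-95888551 on the minus strand and Ldha at chr7:46845654-46845803 on the plus strand.
Dlat: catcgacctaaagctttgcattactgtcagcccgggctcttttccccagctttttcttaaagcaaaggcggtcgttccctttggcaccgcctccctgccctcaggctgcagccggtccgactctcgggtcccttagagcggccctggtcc
Dlst: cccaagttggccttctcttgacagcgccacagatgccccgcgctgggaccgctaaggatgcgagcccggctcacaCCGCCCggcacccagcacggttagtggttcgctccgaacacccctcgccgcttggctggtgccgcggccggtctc
Got2: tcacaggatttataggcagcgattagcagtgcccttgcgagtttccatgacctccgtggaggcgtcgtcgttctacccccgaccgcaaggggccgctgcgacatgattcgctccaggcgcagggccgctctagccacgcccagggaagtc
Ldha: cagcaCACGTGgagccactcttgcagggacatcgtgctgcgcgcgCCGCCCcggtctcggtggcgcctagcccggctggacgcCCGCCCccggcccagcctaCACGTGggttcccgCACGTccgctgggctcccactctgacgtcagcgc

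Upper glycolysis, which takes glucose to triose phosphates, was higher mainly at aldolase and triose phosphate isomerase. Hexokinase, which commits glucose to metabolism, had tested probe sets whose means lay close together in the deposited values. Hk1, the main brain form, had log2 signals of 10.04, 10.25, 10.20, 10.72 and 11.08 in High Exploration mice, against 10.65, 10.52, 10.24, 10.13 and 10.74 in Low Exploration mice. The groups ran through each other, and the means lay 0.005 apart. Hk2, the inducible form, had signals of 6.33, 7.84, 7.84, 7.91 and 7.75 in High and 8.19, 8.19, 7.04, 8.50 and 5.67 in Low Exploration mice, with 1 low array in each group. Its difference was 0.01 ± 0.54 (SE, limma adjusted p = 0.987). Under median centring the difference was 0.54 for Hk1 and 0.55 for Hk2, and a dim second Hk1 probe set differed by −0.97.

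Phosphofructokinase sets the main control point of glycolysis. The tested probe sets of its 3 subunit genes lay in both directions, for Pfkl and Pfkp also within 1 gene. The only probe set of Pfkm, the muscle-type subunit, differed by 0.09 ± 0.42 (SE), a sign that turned after quantile normalization (−0.21) and cyclic loess (−0.21). Pfkl, the liver-type subunit, had a probe set (1453541_at) at 7.33, 8.14, 8.29, 8.00 and 8.63 in High, against 8.49, 9.25, 8.98, 8.66 and 9.41 in Low Exploration mice. Only High replicate 5 reached into the Low range, and the difference was −0.88 ± 0.35 (SE, limma adjusted p = 0.119), and −0.44 after quantile normalization and after cyclic loess. Probe set 1453541_at lies in decile 8, where the median of all probe sets was −0.47. The other Pfkl probe sets differed by 0.33 and −0.22. For Pfkp, the platelet-type subunit, 1437759_at read 7.91, 5.88, 8.45, 7.02 and 8.48 in High Exploration mice and 9.16, 8.99, 8.32, 8.41 and 9.44 in Low Exploration mice. This was the largest negative difference among the tested members, −1.32 ± 0.50 (SE, limma adjusted p = 0.110). The brighter Pfkp probe set, 1416069_at, lay the other way at 0.37 ± 0.49, and a dim one besides these differed by −0.37. After quantile normalization 1437759_at was at −0.85 and after cyclic loess at −0.82. It lies in decile 7, where the median of all probe sets was −0.55.

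Aldolase cleaves fructose bisphosphate, and all 7 tested probe sets of its genes were higher in High Exploration mice. The 5 of Aldoa ranged between 0.22 and 1.30, and 2 of them had an unadjusted limma p under 0.05 (1.30 ± 0.54 and 1.08 ± 0.49, SE). The brightest, 1447734_x_at, showed only 0.33 ± 0.35 and turned negative after quantile normalization (−0.16) and cyclic loess (−0.24). Aldoc, the aldolase typical of astrocytes in brain, had 1451461_a_at at 11.78, 11.94, 13.24, 10.43 and 10.93 in High and 12.13, 10.95, 10.87, 10.64 and 10.94 in Low Exploration mice. High replicate 3 was the highest of all arrays and High replicate 4 the lowest.

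Tpi1, which interconverts the triose phosphates, had the most even pattern of this stage. Its probe set 1452927_x_at read 14.33, 14.82, 14.63, 14.60 and 14.68 in High Exploration mice, against 13.58, 14.43, 13.49, 13.20 and 14.09 in Low Exploration mice. High replicate 1 alone fell under the highest Low array, Low replicate 2. The difference was 0.86 ± 0.33 (SE, 1.81-fold, limma adjusted p = 0.113), and the other Tpi1 probe sets lay close to it at 0.75 and 0.72. For 1452927_x_at the difference was 0.31 after quantile normalization and 0.29 after cyclic loess.

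The later steps of glycolysis, which yield ATP and pyruvate, had no tested member at an unadjusted limma p under 0.05 outside lactate dehydrogenase, and Gapdh, read from control probe sets, is given after it. Pgk1, the first ATP-forming step, had differences of −0.11, 0.13 and 0.73 in its 3 probe sets. Pgam1, phosphoglycerate mutase, differed by 0.23 ± 0.30 (SE). For Pkm, pyruvate kinase, the difference was −0.32 ± 0.36. Eno2, the enolase of neurons, read 8.88, 9.56, 10.66, 9.22 and 9.02 in High and 10.04, 8.39, 8.51, 9.10 and 9.29 in Low Exploration mice. The highest array in each group, High replicate 3 and Low replicate 1, stood well above the rest, and the difference was 0.40 ± 0.44.

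Lactate dehydrogenase exists as mixed tetramers of the Ldha and Ldhb products. Ldha, the form that favours lactate formation, read 11.72, 12.48, 12.83, 11.41 and 10.82 in High Exploration mice, against 11.90, 11.39, 10.77, 10.46 and 10.70 in Low Exploration mice. Only High replicates 2 and 3 exceeded every Low array, and the difference was 0.81 ± 0.44 (SE, limma adjusted p = 0.227), or 0.50 after quantile normalization and 0.46 after cyclic loess.

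For Ldhb, the form that favours pyruvate, the 4 probe sets did not agree. Probe set 1416183_a_at read 11.04, 12.00, 13.79, 10.46 and 10.59 in High and 11.23, 10.09, 10.18, 9.48 and 9.75 in Low Exploration mice, a difference of 1.43 ± 0.60 (SE, limma adjusted p = 0.134). Low replicate 1 was above 3 of the High arrays. Probe set 1455235_x_at read 12.16, 13.03, 14.24, 12.66 and 12.55 in High and 12.48, 11.80, 10.43, 9.88 and 13.08 in Low Exploration mice, a difference of 1.39 ± 0.61 (limma adjusted p = 0.147). Here the Low arrays spread more widely than the High arrays. The brightest probe set, 1434499_a_at, lay the other way, at 15.18, 15.29, 15.87, 15.77 and 16.06 in High against 15.38, 16.05, 16.12, 16.24 and 16.45 in Low Exploration mice. Its difference was −0.41 ± 0.34 (limma adjusted p = 0.405) and turned to 0.12 under median centring and 0.19 at equal hybridisation controls, while cyclic loess put it at −1.08 and quantile normalization at −0.64. The fourth probe set differed by 0.62 ± 0.49.

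Gapdh, which oxidises glyceraldehyde phosphate, is also a control transcript of the array, with probe sets at its 3′ end, middle and 5′ end. Differences between these were tested because they compare parts of 1 transcript on 1 array. The 3′ probe set read 13.42, 13.88, 14.62, 12.98 and 13.37 in High and 14.03, 12.90, 13.21, 13.39 and 13.28 in Low Exploration mice, with overlapping groups (difference 0.29, exact permutation p = 0.413). The middle probe set read 10.15, 9.80, 10.54, 10.07 and 10.65 in High and 11.37, 10.98, 11.17, 11.11 and 10.97 in Low Exploration mice, and all High arrays lay below all Low arrays. That difference was −0.88 (exact permutation p = 0.00794, the smallest that 252 assignments allow, adjusted p over the 5 Gapdh measures = 0.0198). At the 5′ end the difference was −0.71 (exact permutation p = 0.0476, adjusted 0.0595). These level differences depend on the scaling of each array, whereas the gaps between parts of the transcript do not. The gaps are not free of a shift that depends on signal level, and the 3 parts read at different levels. Over all probe sets the median difference rose from −0.47 in decile 8 to 0.43 in decile 10. The part of such a shift in the gaps was not tested. Median centring moved the median of all tested probe sets from −0.31 to 0.23 and would add the same constant to each level difference. The levels were not recomputed under it or at equal hybridisation controls.

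The gap between the ends of the Gapdh transcript was wider in High Exploration mice. The 3′ minus 5′ log2 signal was 4.77, 5.03, 5.21, 4.66 and 3.96 in High, against 3.83, 3.49, 3.68, 4.06 and 3.56 in Low Exploration mice, a difference of 1.00 (exact permutation p = 0.0159, adjusted 0.0265). High replicate 5 was the only High array within the Low range. The 3′ minus middle gap was 3.41 ± 0.641 in High and 2.24 ± 0.289 in Low Exploration mice (SD, n = 5 each), with no overlap (exact permutation p = 0.00794, adjusted 0.0198). In the deposited values the direction read from Gapdh therefore depended on the part of the transcript probed. The part of RNA integrity or labelling in this gap was not tested. The part of this gap in the values of the other members was not tested either.

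**Figure D4:**
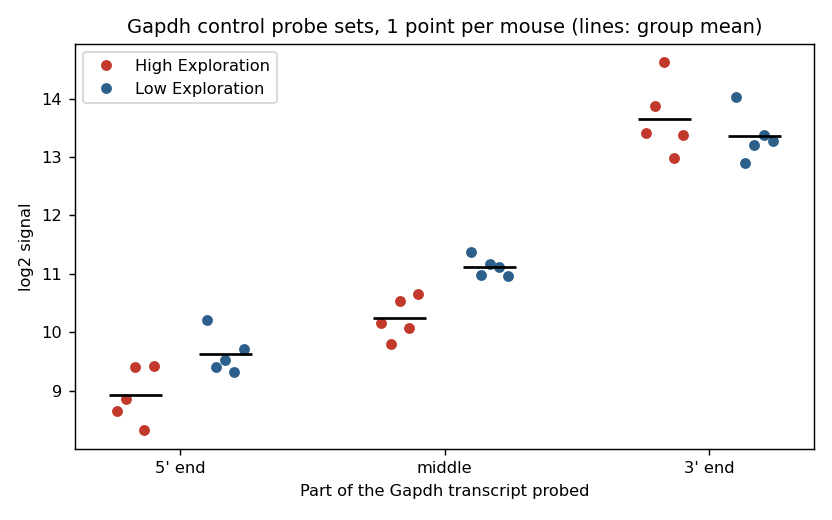
Log2 signal of the 3 Gapdh control probe sets is plotted for each mouse, High Exploration left of Low Exploration at each part of the transcript, with lines at group means. In the deposited values the groups overlap at the 3′ end and are fully apart in the middle. There the High arrays lie between 9.80 and 10.65 and the Low arrays between 10.97 and 11.37.

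The pyruvate dehydrogenase complex gave the most uniform direction, with all 6 tested probe sets of its 4 genes higher in High Exploration mice. Of these, 4 had an unadjusted limma p under 0.05, against 9.67% of all tested probe sets. All 6 lie in deciles 9 and 10, where 43.6% and 65.6% of all probe sets were higher. At that p 467 and 1207 of the 4504 probe sets in each of these deciles were higher. Pdha1 and Pdhb encode the decarboxylating E1 component. Pdha1 read higher by 1.05 ± 0.41 (SE, limma adjusted p = 0.115), and Pdhb by 0.54 ± 0.33 (limma adjusted p = 0.283). Dlat encodes the E2 core that forms acetyl-CoA. Its probe set 1452005_at read 12.66, 13.03, 13.16, 12.58 and 12.35 in High, against 12.26, 12.18, 11.17, 11.80 and 11.45 in Low Exploration mice.

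This was the only member with every High array above every Low array, and the margin between High replicate 5 and Low replicate 1 was narrow. The difference was 0.98 ± 0.34 (SE, 1.98-fold, limma adjusted p = 0.0924), and it was 0.53 after quantile normalization and 0.55 after cyclic loess. A second Dlat probe set, 1426265_x_at, read 10.44, 10.78, 10.54, 9.74 and 9.50 in High and 9.50, 9.29, 7.94, 9.65 and 8.02 in Low Exploration mice. It differed by 1.32 ± 0.44 (2.50-fold, limma adjusted p = 0.0876), with High replicate 5 level with the upper Low arrays. The third Dlat probe set differed by 1.36 ± 0.75.

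Dld encodes the E3 dehydrogenase that this complex shares with the 2-oxoglutarate dehydrogenase complex. Its tested probe set, 1423159_at, read 11.01, 10.64, 8.88, 9.77 and 9.28 in High Exploration mice, against 8.54, 9.23, 8.21, 8.68 and 7.40 in Low Exploration mice. High replicates 1 and 2 were clearly above the Low range, and High replicate 3 fell within it. The difference was 1.51 ± 0.48 (SE, 2.84-fold, limma adjusted p = 0.0799). Dim probe sets of Pdha1 and Dld, left out by the filter, differed by −0.52 and −0.32, and that of Pdhb by 0.54.

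**Figure D5:**
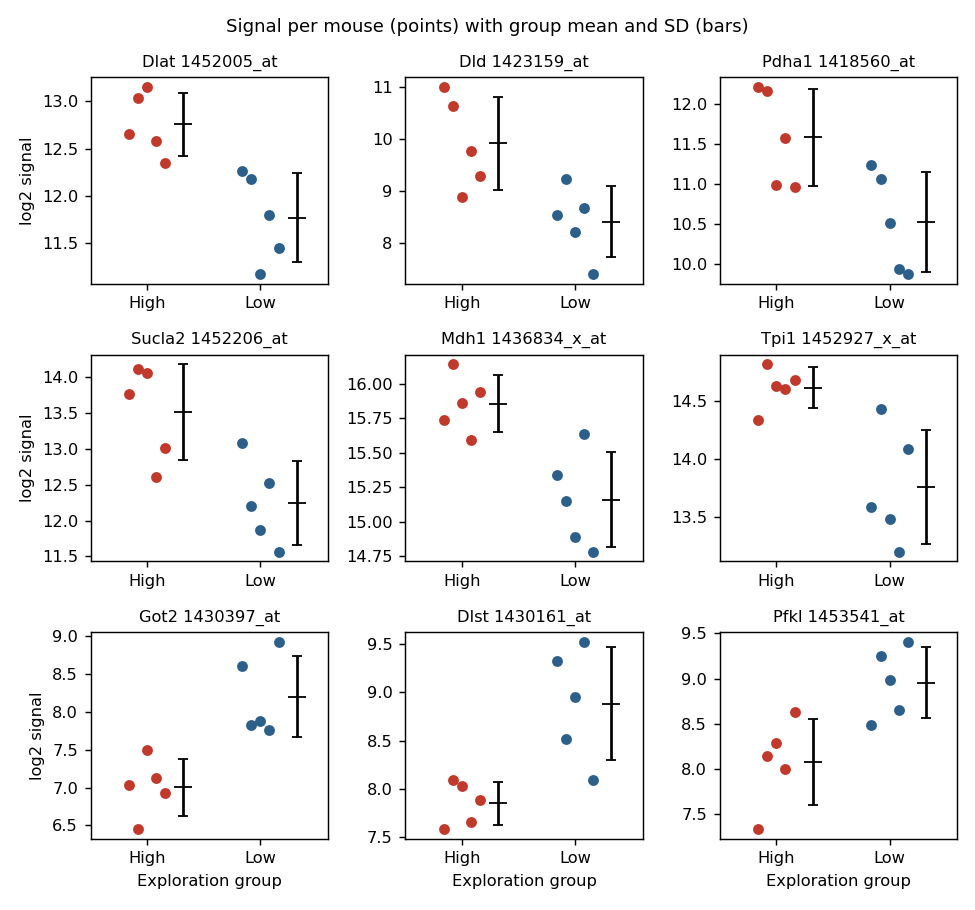
Log2 signal per mouse is plotted for 9 member probe sets, High Exploration left and Low Exploration right, with bars for the group mean and SD; vertical axes differ and do not start at 0. Dlat 1452005_at, Got2 1430397_at and Dlst 1430161_at keep the groups apart, and the other 6 overlap by at least 1 array.

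In the citric acid cycle the direction differed between enzymes. For Idh1, Idh2, Idh3a and Sucla2 it also differed between tested probe sets of 1 gene. Cs, citrate synthase, which starts the cycle, was higher in all 3 probe sets, by 1.26, 0.78 and 0.17. The NAD-dependent isocitrate dehydrogenase is built of 3 kinds of subunit, and their genes lay apart. Idh3b (1.01 and 0.59) and Idh3g (1.29 and 1.22) were higher in every tested probe set, whereas the catalytic subunit gene Idh3a had differences of −1.23, −0.59 and 0.03. Of these 7 only Idh3b 1418885_a_at had an unadjusted limma p under 0.05, with a limma adjusted p of 0.122. Dim probe sets of Idh3a and Idh3b differed by −0.20 and −2.00.

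Among the NADP-dependent isocitrate dehydrogenases, the cytosolic Idh1 had the largest difference of all tested members. Probe set 1422433_s_at read 11.68, 12.45, 11.84, 8.12 and 9.08 in High, against 10.12, 7.21, 8.41, 7.69 and 7.20 in Low Exploration mice. High replicates 1 to 3 were above every Low array, while High replicates 4 and 5 lay within the Low range, and Low replicates 1 and 3 lay above High replicate 4. The difference was 2.51 ± 0.83 (SE, 5.68-fold, limma adjusted p = 0.0870). The other Idh1 probe set, which is dimmer, differed by −0.23. Idh2, the mitochondrial form, read 9.82, 9.17, 10.08, 10.13 and 8.09 in High and 9.50, 9.99, 8.96, 9.68 and 7.83 in Low Exploration mice, and its difference of 0.27 ± 0.50 turned to −0.07 without Low replicate 5. A dimmer tested Idh2 probe set, 1453601_at, differed by −0.41.

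In the 2-oxoglutarate dehydrogenase complex the 3 components lay apart. Dlst encodes its E2 succinyltransferase, and all 3 tested probe sets were lower, by −1.25, −1.04 and −0.60. Probe set 1430161_at read 7.58, 8.09, 8.03, 7.65 and 7.88 in High, against 9.32, 8.52, 8.95, 9.53 and 8.09 in Low Exploration mice. All High arrays lay below all Low arrays, though High replicate 2 and Low replicate 5 nearly touched. The difference was −1.04 ± 0.35 (SE, Low 2.05-fold higher, limma adjusted p = 0.0887), and −0.57 after quantile normalization and −0.56 after cyclic loess. These probe sets are dim, in deciles 6 and 7, where the median of all probe sets was −0.57 and −0.55. Ogdh, the E1 of the complex, was measured only below the filter, at 0.54 and −0.91, and a Dlst probe set under the filter was at −0.56. The shared E3, Dld, was higher by 1.51, as given above.

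Succinyl-CoA ligase pairs the Suclg1 alpha subunit with an ATP-forming (Sucla2) or GTP-forming (Suclg2) beta subunit. Suclg1 differed by 1.13 ± 0.43 (SE, limma adjusted p = 0.111). Sucla2, the beta subunit typical of neurons, had 1452206_at at 13.77, 14.12, 14.06, 12.61 and 13.01 in High and 13.08, 12.20, 11.87, 12.52 and 11.56 in Low Exploration mice. High replicates 1 to 3 exceeded every Low array, and only Low replicate 1 entered the High range. Its difference was 1.27 ± 0.41 (2.41-fold, limma adjusted p = 0.0840), and the dimmer probe sets differed by −0.30 and, under the filter, by −2.08. After quantile normalization the difference of 1452206_at was 0.77, and after cyclic loess 0.79.

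For Suclg2 the brightest probe set read 9.34, 9.91, 10.25, 9.16 and 9.77 in High and 10.48, 9.74, 8.11, 10.33 and 9.76 in Low Exploration mice, with means that matched within 0.001 as deposited and a difference of 0.54 under median centring. A dim second Suclg2 probe set differed by −0.80. Fh1, fumarase, differed by 0.67 ± 0.48 (SE).

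In the malate-aspartate shuttle the cytosolic malate dehydrogenase Mdh1 and the aminotransferase Got2 lay in opposite directions. Mdh1 was higher in all 3 tested probe sets. The brightest, 1436834_x_at, read 15.74, 16.14, 15.86, 15.59 and 15.94 in High, against 15.34, 15.15, 14.89, 15.63 and 14.78 in Low Exploration mice. Only Low replicate 4 reached the High range, by a little over High replicate 4, and the difference was 0.70 ± 0.31 (SE, 1.62-fold, limma adjusted p = 0.150). It was 0.40 after quantile normalization and 0.05 after cyclic loess.

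A second Mdh1 probe set, 1454925_x_at, read 16.16, 16.01, 15.86, 15.78 and 14.21 in High and 15.08, 14.82, 12.89, 14.52 and 13.67 in Low Exploration mice. High replicate 5 stood far under the other High arrays. The difference was 1.41 ± 0.50 (SE, limma adjusted p = 0.0970), and without High replicate 5 it was 1.75 with a limma adjusted p of 0.0494, the only member called in that fit. That is 1.56% of the members, against 5.40% of all tested probe sets called without that array. After quantile normalization the difference was 1.02 and after cyclic loess 0.79. Probe set 1448172_at read 11.10, 12.32, 13.05, 9.40 and 10.38 in High and 10.79, 9.49, 9.91, 8.88 and 7.55 in Low Exploration mice, a difference of 1.93 ± 0.71 (3.80-fold, limma adjusted p = 0.105). High replicates 1 to 3 exceeded all Low arrays. Both dim Mdh1 probe sets differed the other way, by −1.25 and −0.46.

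Mdh2, the mitochondrial malate dehydrogenase shared with the citric acid cycle, was close to level. Its brightest probe set read 15.48, 15.63, 16.10, 15.47 and 15.61 in High and 15.69, 15.61, 15.53, 15.50 and 15.81 in Low Exploration mice, a difference of 0.03 ± 0.29 (SE) that turned to −0.25 after quantile normalization and −0.63 after cyclic loess. High replicate 3 lay apart from all others.

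Got2, the mitochondrial aspartate aminotransferase, was lower in both tested probe sets. Probe set 1430397_at read 7.03, 6.45, 7.49, 7.13 and 6.92 in High, against 8.61, 7.83, 7.88, 7.75 and 8.93 in Low Exploration mice, with no overlap. The difference was −1.19 ± 0.36 (SE, Low 2.29-fold higher), and its limma adjusted p of 0.0732 was the smallest of all members. The difference was −0.68 after quantile normalization and −0.62 after cyclic loess. It was −0.66 under median centring (limma adjusted p = 0.216) and −0.59 at equal hybridisation controls (limma adjusted p = 0.316). This probe set is dim, in decile 6, where the median of all probe sets was −0.57. The brighter 1417715_a_at read 10.36, 10.15, 10.86, 10.09 and 9.62 in High and 11.11, 10.50, 11.47, 10.38 and 11.19 in Low Exploration mice, a difference of −0.71 ± 0.36 (limma adjusted p = 0.190). Here High replicate 3 lay within the Low range. The difference of 1417715_a_at was −0.18 under median centring (limma adjusted p = 0.786) and −0.11 at equal hybridisation controls (limma adjusted p = 0.896). It was −0.85 after quantile normalization and −0.87 after cyclic loess. Got1, the cytosolic form, fell under the filter and read 5.75, 6.54, 7.12, 7.34 and 6.43 in High and 4.95, 6.05, 5.65, 7.11 and 5.89 in Low Exploration mice, with a mean higher by 0.71. The remaining Got2 probe sets, also under the filter, were at −0.33 and −0.52.

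Of the 19 genes with more than 1 tested probe set, 9 had all of them higher, 2 (Dlst and Got2) had all lower, and 8 had probe sets in both directions. No member gene had probe sets of opposite sign that both reached an unadjusted p under 0.05. Probe sets whose names carry no suffix for shared or alternative transcripts gave 16 of 25 members higher, and the brightest probe set of each gene gave 24 of 32 higher.

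Isozymes and partner subunits were also set against each other within an array, which removes any scaling constant. It does not remove a shift that depends on signal level, and some pairs lie in different deciles. Sucla2 lies in decile 10 and Suclg2 in decile 9, where the medians of all probe sets were 0.43 and −0.17. Pfkm lies in decile 10 and Pfkl in decile 8 (median −0.47), and Got2 in decile 10 and Got1 in decile 3 (median −0.64). The Mdh, Ldh, Idh and Aldo pairs each lie in 1 decile. The part of such a shift in the pair differences was not tested. Of 10 pairs chosen, 9 could be measured, and none reached an adjusted p under 0.05 over the 9. The smallest exact permutation p that 252 assignments allow is 0.00794, so 1 pair alone could not have reached that threshold. Sucla2 minus Suclg2 was 4.43, 4.21, 3.82, 3.44 and 3.24 in High, against 2.60, 2.45, 3.75, 2.20 and 1.80 in Low Exploration mice, a difference of 1.27 (exact permutation p = 0.0238, adjusted 0.107). Low replicate 3 alone lay within the High range. The difference was 0.61 after quantile normalization and 0.03 (adjusted exact permutation p = 0.976) with the mean over all probe sets of each gene. Mdh2 minus Mdh1 was −0.26, −0.51, 0.24, −0.12 and −0.33 in High and 0.35, 0.47, 0.64, −0.14 and 1.03 in Low Exploration mice, a difference of −0.66 (exact permutation p = 0.0238, adjusted 0.107), or −0.34 with the mean over all probe sets.

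The lactate dehydrogenase pair, Ldhb minus Ldha, differed by −1.22 (exact permutation p = 0.0794, adjusted 0.157), and by −0.05 (adjusted exact permutation p = 0.976) with the mean over all probe sets. Got2 minus Got1 differed by −1.42 (exact permutation p = 0.0635, adjusted 0.157), and by −2.15 after quantile normalization. Idh2 minus Idh1 differed by −2.24 (exact permutation p = 0.0873, adjusted 0.157), or −1.21 with that mean. For Pfkl minus Pfkm the difference was −0.97 (exact permutation p = 0.111, adjusted 0.166), against −0.34 with that mean and −0.24 after quantile normalization. Differences for Pfkp minus Pfkm (0.28), Aldoc minus Aldoa (0.23) and Hk2 minus Hk1 (0.01) had adjusted exact permutation p-values between 0.643 and 0.984.

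Genes around these pathways were split almost evenly between the directions. Of 62 genes for regulators, transporters, other isozymes, anaplerosis and neighbouring routes, 42 had a tested probe set. Their 68 probe sets were 35 higher and 33 lower, with a median of 0.01, and 0 had a limma adjusted p under 0.05. That is 51.5% higher, against 38.1% of all tested probe sets, whose median was −0.31. Their mean log2 signal was 8.90, against 9.18 for all tested probe sets and 10.7 for the members. At an unadjusted limma p under 0.05, 7 were higher and 11 lower, against 9.67% and 20.5% of all tested probe sets. The groups did not overlap in 5 with High below Low, against 6.69% of all, and in 0 with High above, against 2.14% of all. Gpd2, the mitochondrial glycerol phosphate dehydrogenase, had 1 probe set at 2.08 ± 0.75 (SE, limma adjusted p = 0.101). Another lay the other way at −1.37 ± 0.56 (limma adjusted p = 0.128), and both had an unadjusted limma p under 0.05. The remaining Gpd2 probe sets differed by 0.72 and −0.65. Slc2a3, the neuronal glucose transporter, had one at 1.42 ± 0.52 (limma adjusted p = 0.101).

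Pdk1, a kinase that inhibits pyruvate dehydrogenase, had a bright probe set at 0.95 ± 0.36 (SE, limma adjusted p = 0.107) and a dimmer one at −1.94 ± 0.39 (limma adjusted p = 0.0581). This dimmer probe set kept the groups apart, as did Eno4, an enolase best known from sperm, at −1.94 ± 0.39 (limma adjusted p = 0.0581). So did Acly 1446315_at (−1.01), Eno3 1417951_at (−0.89) and Slc25a12 1444489_at (−1.01), all with High below Low. The dimmer Pdk1 probe set and those of Eno4 and Eno3 lie in decile 6, where the median of all probe sets was −0.57. Further tested probe sets differed by −0.12 and −1.05 for Pdk1, −0.25 and 0.49 for Acly, and 0.12 and 0.004 for Slc25a12. Tkt, transketolase of the pentose phosphate pathway, had a probe set at −1.46 ± 0.45 (limma adjusted p = 0.0762).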

How the data were processed

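The authors deposited linear MAS5 signal intensity values, a single one for every probe set on every Affymetrix mouse array. MAS5 subtracts background, adjusts for mismatch probes and scales every array by its own constant. The deposited intensity of each array had a mean of 500 after 2% of the probe sets were trimmed at both ends. The distribution was left unnormalised, so signal moved between bright and dim probe sets stays in the values. The labels describe standard labelling of total RNA with biotin, while the study's methods describe a double round of amplification, and which was used here is not settled.

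Here log2 of the deposited signal was taken with no pseudocount. The table held 45101 probe sets, of which 64 were controls. In the platform annotation 34958 probe sets had 1 symbol, 932 had several and 9211 had none. Probe sets with a mean log2 signal above the median of all were fitted with limma 3.58.1 (lmFit and eBayes, R 4.3.3), with Benjamini-Hochberg adjustment over all 22518 and a threshold of 0.05. Gapdh measures and isozyme differences, with a single value per array, went through an exact permutation test, 2-sided, of all 252 assignments. Levels of different probe sets were not ranked against each other, and for isozyme pairs and the Gapdh gaps the within-array difference was compared between the groups. The 5 arrays per group limit the precision. Scan dates and slides are not given in the sources used here, so no batch could be examined. Pearson correlations of log2 signal between arrays ranged from 0.701 to 0.837 across probe sets.

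Members, gene lists and pairs were chosen with earlier results of these data known. Values in every array are given for the 3 probe sets with the smallest limma p in each role, for the probe sets of the isozyme pairs and for the Gapdh controls. Of the related genes the 3 with the smallest p in each direction are named, as are those with a probe set whose groups do not overlap. Other members are named to account for the list. Alternatives covered median centring, quantile and cyclic loess normalization, equal hybridisation controls, a pseudocount of 23.0 (the 10th percentile), no filter and a filter at the 75th percentile, array weights, other sets of probe sets, and leaving out each array. Procedures were tested on simulated data.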

Additional observations from a re-analysis of the deposited data

Results flagged for a closer look

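In 4 of 64 groups of 5 values, taken from the probe sets printed by array, 1 array lay far from the others by Dixon's criterion, which chance meets in about 1 of 20 groups. Mdh1 1454925_x_at was lowest in High Exploration replicate 5, at a log2 signal of 14.21, with the next High array at 15.78. Hk2 1422612_at was lowest in High Exploration replicate 1, at 6.33, with the next at 7.75. Mdh2 1433984_a_at was highest in High Exploration replicate 3, at 16.10, with the next at 15.63. Aldoc 1451461_a_at was highest in Low Exploration replicate 1, at 12.13, with the next at 10.95.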

How the results depend on the processing

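No member passed the adjusted threshold as deposited. With each array centred on its median, 4 did (Dld 1423159_at, Dlat 1452005_at, Sucla2 1452206_at and Tpi1 1452927_x_at), and with array weights 3 did (Idh1 1422433_s_at, Dld 1423159_at and Sucla2 1452206_at). These were 6.25% and 4.69% of the members, against 4.02% and 9.71% of all tested probe sets. Leaving out 1 array gave 0 to 1 called members, the 1 being Mdh1 1454925_x_at without High replicate 5, where 5.40% of all were called. The number called was 0 under the other normalizations, filters and the pseudocount. The median difference of the members, 0.39, was 0.92 under median centring and 0.99 at equal hybridisation controls, where 55 and 57 of 64 members were higher, and 0.02 with the hybridisation controls as a covariate, a setting added after the data were seen. Members whose groups did not overlap with High above numbered 1 as deposited, 11 under median centring, 6 at equal hybridisation controls, 0 after cyclic loess, and 1 to 8 with 1 array left out (8 without Low replicate 1, 6 without High replicate 5, 3 without High replicate 1 and 3 without Low replicate 2). The shares under median centring were 17.2% of the members against 6.97% of all, at equal hybridisation controls 9.38% against 5.87%, without Low replicate 1 12.5% against 5.40%, and without High replicate 5 9.38% against 3.62%. Without High replicate 1 they were 4.62% against 2.27%, and without Low replicate 2 4.69% against 2.72%. Those with High below numbered 2 as deposited, 0 under median centring, 0 after quantile normalization, 1 after cyclic loess, 0 at equal hybridisation controls and 0 with the filter at the 75th percentile, where the shares of all tested probe sets were 6.69%, 1.55%, 3.09%, 3.41%, 1.09% and 5.82% in that order.

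The following directions turned, and the cause was not tested. Under median centring Ldhb 1434499_a_at was 0.12 and Suclg2 0.54, and at equal hybridisation controls they were 0.19 and 0.61. After quantile normalization Mdh2 was −0.25, Hk1 −0.0359, Pfkm −0.21, Aldoa 1447734_x_at −0.16 and Suclg2 0.16. After cyclic loess Mdh2 was −0.63, Hk1 −0.13, Pfkm −0.21, Aldoa −0.24 and Suclg2 0.10. With the pseudocount Hk2 was −0.0176 and Hk2 minus Hk1 −0.0225, and with array weights Hk2 was −0.12, Hk1 −0.0305 and Suclg2 0.00217. With the mean over all probe sets of a gene Pfkp minus Pfkm was −0.53 and Aldoc minus Aldoa −0.38. With 1 array left out, the ranges were −0.45 to 0.31 for Hk2, −0.0721 to 0.61 for Idh2, −0.0772 to 0.0796 for Mdh2, −0.15 to 0.11 for Hk1, −0.20 to 0.36 for Pfkm, −0.39 to 0.20 for Suclg2, −0.52 to 0.34 for Hk2 minus Hk1 and −0.31 to 0.60 for Aldoc minus Aldoa. The Gapdh 5′ difference ranged between −0.83 and −0.55, with an adjusted exact permutation p of 0.0298 without High replicate 3 and without High replicate 5.

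No paired analysis was possible because the labels give the groups no shared replicate numbers. Quantile normalization leaves the control probe sets out, and the Gapdh values were not recomputed under it.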
